A study of Mus musculus with 13 samples.

Results

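Lysosomal hydrolases, lysosomal membrane and transport proteins and the subunits of the vacuolar proton pump (V-ATPase) were followed in sorted mouse microglia. The genes were 28 named lysosomal genes and every gene whose symbol begins with Atp6v or Atp6ap, which added 21, so 49 of the 14518 entries of the gene table were members. The list was not drawn from measured values of this table, but it was chosen with earlier results of these data known. It holds 11 genes of the V1 sector and 7 of the V0 sector of the pump, 2 accessory subunits, 1 V-ATPase pseudogene, 15 hydrolases, 3 activators or secreted lysosomal proteins, 4 transport proteins, 5 membrane proteins and the regulator Tfeb.

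Microglia, the resident macrophages of the brain, had been enriched on Percoll and sorted for CD11b with intermediate CD45 from C57BL/6 mice aged 2 months. In the RSD group (n = 7), 6 cycles of repeated social defeat, a stress in which a mouse is confronted by an aggressor, ended 24 days before the RNA was extracted. The CON group (n = 6) is labelled as control, and how those mice were handled is not given in the labels. Samples are called by the group and number of their labels, RSD 2, 7, 8, 10, 11, 12 and 13 and CON 1, 4, 5, 17, 18 and 19. Whether samples are separate animals is not stated, and p-values thus reflect only how far these samples spread, which may be technical.

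The lysosome breaks down material taken up by phagocytosis and endocytosis or delivered by autophagy. Its hydrolases work at acid pH, and the V-ATPase makes that pH: the V1 sector in the cytosol splits ATP, and the membrane-embedded V0 sector moves protons into the lumen. TFEB and its relatives are transcription factors that bind a palindromic motif with the core CACGTG (the CLEAR element) in promoters of many lysosomal genes. Microglia clear debris, synapses and dying cells through this compartment, and Cd68, Lamp1, Grn and Psap are often read as signs of its state.

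Values are reads divided by a size factor for each sample, called normalized reads below, and depth was 9.76 to 12.3 M reads a sample. Of the 49 members, 45 passed a filter on low values, with 755 to 259699 reads summed over the 13 samples. The other 4 had 59 to 76 reads in all. A pair of libraries stood apart over all genes: the median Spearman correlation with the other libraries was 0.968 for RSD 8 and 0.942 for CON 18, against 0.989 to 0.992 for the rest. CON 18 also differed in cell markers. The summed level of 7 border macrophage markers was 295 to 456 normalized reads in the RSD libraries, against 196 to 334 in the other CON libraries and 17163 in CON 18. The summed level of 10 microglial markers was 305624 to 323602 in RSD, against 310503 to 324844 in the other CON libraries and 201252 in CON 18. Fcrls among them was instead highest in CON 18, at 12344 against 8134 to 11968 in the rest. The sum of 6 monocyte markers was 8890 in CON 18, with Lyz2 at 8416. It was 815 to 1021 in the other CON libraries and 823 to 1120 in RSD. The sum of 4 astrocyte markers was 500 in CON 18, against 1264 to 1628 and 1277 to 1632 in that order. For 5 endothelial markers it was 197, against 513 to 576 and 432 to 574. Single markers did not all follow these sums. Pecam1 (43.9 in CON 18, against 309 to 461 in the rest), Slc1a3, Aqp4, Lyz2 and Vcan did. Flt1 was instead highest in CON 18, at 27.0 against 2.22 to 13.0, and so was Slc1a2, at 87.9 against 8.65 to 75.8. Plac8 was lowest there. Kdr, Cdh5, Slco1a4, Aldh1l1, Ccr2, Chil3 and Fn1 lay within the range of the rest. For the members described one by one, the difference is therefore given with all 13 samples and without RSD 8 and CON 18.

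For the B, C and e subunits of the pump, 1 paralog held nearly all of the signal, and for the G subunit most of it. Levels that compare genes are given as normalized reads per kilobase of the annotated transcript (GENCODE M21). Of the B subunits, which help to bind ATP in V1, Atp6v1b2 had 352 ± 16.8 in RSD and 363 ± 40.8 in CON (SD, n = 7 and 6), and Atp6v1b1, known from kidney acid-secreting cells, had 2.91 ± 1.12 in RSD and 2.10 ± 1.55 in CON. Of the C subunits, Atp6v1c1 had 620 ± 65.4 per kilobase in RSD and 569 ± 86.2 in CON, and Atp6v1c2 had 4.86 ± 2.20 in RSD and 2.58 ± 1.05 in CON. The neuronal G subunit gene Atp6v1g2 was detected at 34.8 ± 5.93 per kilobase in RSD and 44.1 ± 14.99 in CON, and Atp6v1g1 at 399 ± 55.3 in RSD and 401 ± 35.4 in CON. Atp6v1g2 shares 144 exon bases with Nfkbil1 on the opposite strand, and reads there cannot be assigned without strand. Atp6v0e had 109 ± 13.0 per kilobase in RSD and 116 ± 14.01 in CON, while its paralog Atp6v0e2 had 2.76 ± 1.80 in RSD and 2.40 ± 2.39 in CON.

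The a subunit, which carries the proton path of V0, was the exception. Atp6v0a1 had 635 ± 35.8 normalized reads per kilobase in RSD and 661 ± 45.7 in CON, and Atp6v0a2 had 551 ± 39.1 in RSD and 528 ± 105 in CON. A further a subunit gene, Tcirg1, does not carry the symbol pattern and is given here because it belongs to the same family. It was the most abundant of the 3 given here, with 1308 ± 321 per kilobase in RSD and 1482 ± 35.1 in CON. Its lowest library, RSD 8, had 667 per kilobase, which overlaps the range of 558 to 752 of Atp6v0a1.

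Over all members, the highest levels per kilobase belonged to membrane and activator genes. Laptm5, a lysosomal membrane protein of hematopoietic cells, had 7625 ± 1003 in RSD and 8017 ± 779 in CON, and Psap, the precursor of the saposins that help hydrolases reach lipids, had 6737 ± 842 in RSD and 7548 ± 512 in CON. These 2 neighbours in the order overlapped in their spread. Grn (progranulin) followed at 2793 ± 451 in RSD and 3133 ± 295 in CON, then Cd68 at 2154 ± 312 in RSD and 2477 ± 377 in CON. Man2b1, Lamp1, Lamp2, Asah1, Hexa and Arsb came next, with means between 1281 and 1890 per kilobase in RSD and between 1443 and 1947 in CON. Within this run the mean ± SD ranges of neighbours overlapped, except for Lamp1 and Lamp2 in CON, at 1899 ± 139 and 1576 ± 74.9. Of the pump genes among the members, Atp6ap1 and Atp6v0b had the highest means, under that of Tcirg1, followed by Atp6v0a1, whose spread overlapped that of Atp6v1c1 in both groups. Sgsh, at 57.9 ± 7.98 in RSD and 85.3 ± 59.98 in CON, and Atp6v1g2 were lowest among the members that passed the filter.

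**Figure D1:**
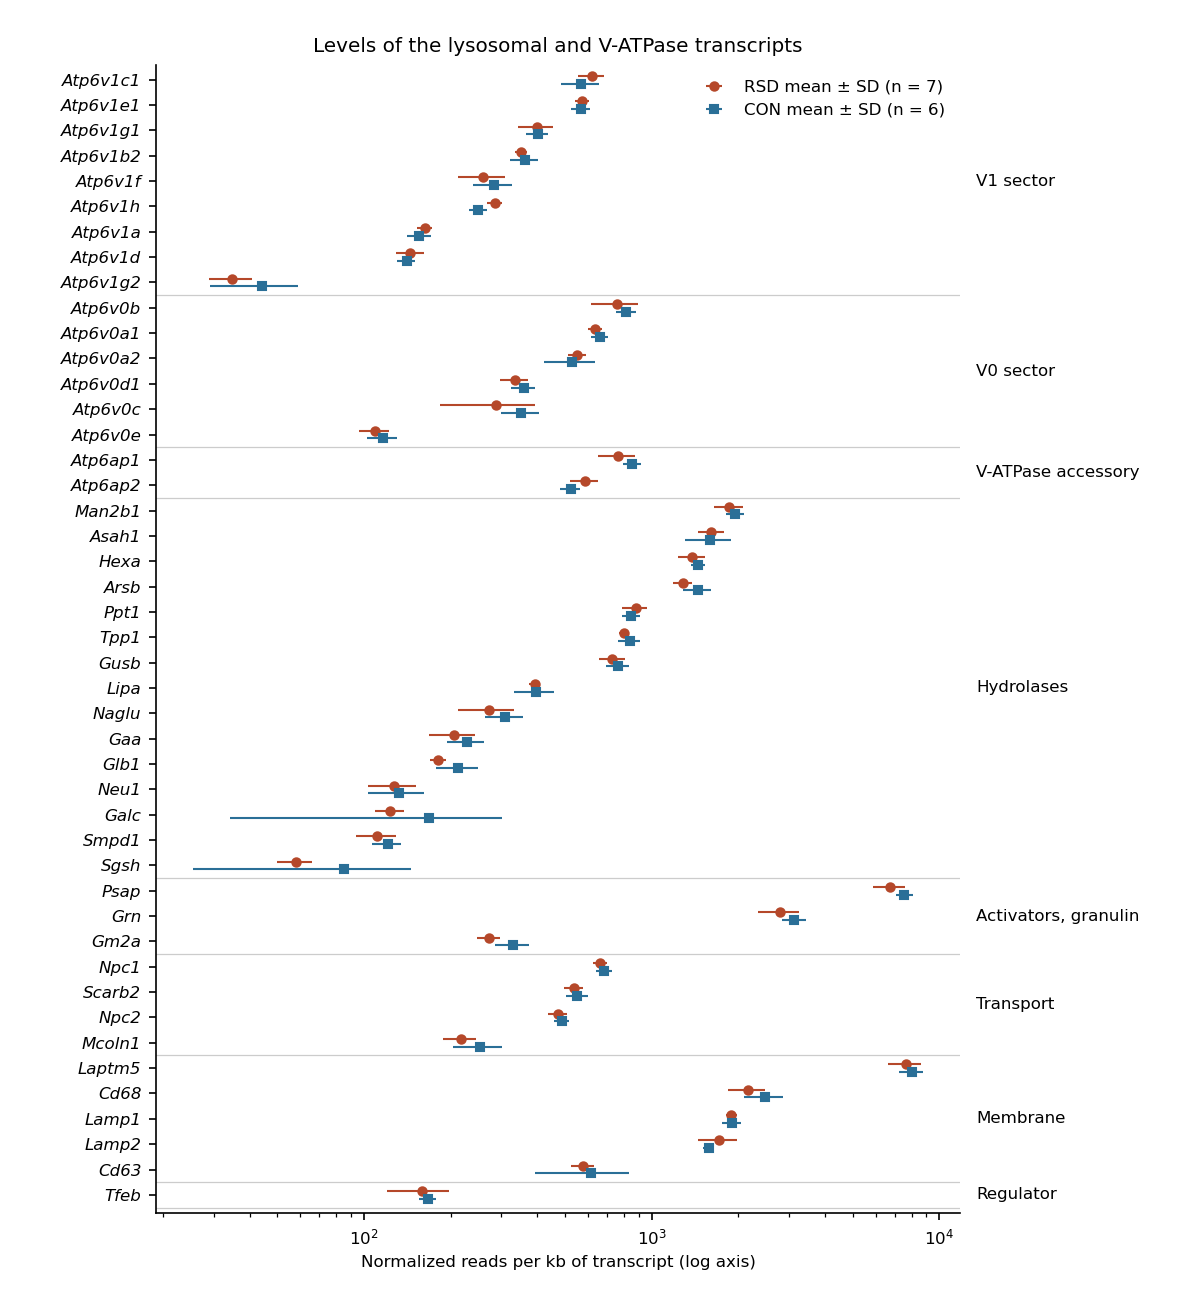
Mean level of the 45 members that passed the filter, in normalized reads per kilobase of transcript on a log axis, with SD bars, for RSD (circles, n = 7) and CON (squares, n = 6), grouped by role and ordered by level. RSD and CON points lie close together for nearly every gene, and the wide CON bars of Galc, Sgsh and Cd63 come with 1 high library.

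Member levels were even across libraries once RSD 8 and CON 18 were set aside. Over the other 11 libraries the median coefficient of variation of the members was 7.30%, against 11.0% over all 12496 genes that passed the filter and 7.56% over genes of similar level. Atp6v0a1 had the least variation, 1.86%, and Atp6v1g2 the most, 18.6%. Together the 49 members took 1.01% ± 0.08 of the reads in RSD (SD, n = 7) and 1.08% ± 0.05 in CON (SD, n = 6), with the lowest share, 0.827%, in RSD 8 and the highest, 1.14%, in CON 18.

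Several members carry the CLEAR core in their promoters. The stretches below, from RefSeq promoter entries of GRCm38.p6 that run from 250 bases before to 50 bases after a gene's start, are shown because they hold the 8-letter form TCACGTGA, or, for Lamp1, 4 copies of the core CACGTG. They are written 5′ to 3′ on the gene's strand, with the motif letters in capitals. Atp6v0d1 lies at chr8:105566041-105566088 on the minus strand, Atp6v0e at chr17:26676378-26676425 on the plus strand, Atp6v1a at chr16:44139364-44139411 on the minus strand, Lamp1 at chr8:13159079-13159172 on the plus strand and Mcoln1 at chr8:3500427-3500500 on the plus strand.
Atp6v0d1: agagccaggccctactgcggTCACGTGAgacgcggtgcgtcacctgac
Atp6v0e: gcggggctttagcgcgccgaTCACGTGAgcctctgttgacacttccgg
Atp6v1a: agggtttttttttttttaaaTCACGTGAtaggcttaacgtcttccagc
Lamp1: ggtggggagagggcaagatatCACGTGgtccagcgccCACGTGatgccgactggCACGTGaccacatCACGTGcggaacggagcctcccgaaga
Mcoln1: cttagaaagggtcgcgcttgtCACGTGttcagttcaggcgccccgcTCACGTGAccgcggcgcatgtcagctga

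Both motifs read the same on either strand, and every TCACGTGA contains the core. RefSeq promoter entries were found for 41 members. The core CACGTG stood in 10 of these 41 (24.4%), against 11.3% of the 10603 table genes with an entry. TCACGTGA stood in 4 of 41 (9.76%), against 2.08% of those genes, and the 10-letter palindromic form of the element in 0 of 41, against 0.792%. The other 5 members with the core were Atp6v0b, with 2 copies, and Gaa, Glb1, Naglu and Sgsh. Matches are letters in a window and were not tied to binding, and no match says only that the letters are not in that window.

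The comparison of RSD with CON asks whether these transcripts still differed 24 days after defeat. No member passed limma's test at an adjusted p of 0.05 (0 of 45, where 0.00% of all 12496 genes passed), and the smallest adjusted p of a member was 0.821. edgeR and DESeq2 on the recovered reads likewise called 0 of 45 members at an adjusted p of 0.05, where edgeR called 0.00% and DESeq2 0.0160% of all genes. At an unadjusted p under 0.05, 4 of 45 members (8.89%) were found by limma, where 4.00% of all genes were. Gm2a, Glb1 and Arsb were lower in RSD, where 1.98% of all genes were at that level, and Atp6v1h was higher, where 2.02% were. edgeR found 4 members (4.81% of all genes) and DESeq2 5 (4.62%), adding Sgsh. Without CON 18 the members at that level were 2, Gm2a and Atp6v1h (4.44%, where 4.95% of all genes were), and the same 2 remained without both RSD 8 and CON 18 (4.89% of all genes). Without RSD 2 they were again Gm2a and Atp6v1h (2.58% of all genes). With the range of sample numbers described below as a term in the fit, they were 6 (13.3%, where 5.87% of all genes were), adding Atp6ap2 and Cd68.

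The differences were small and mostly negative. The difference was below 0 for 35 of 45 members, with a median of −0.07 on the log2(value + 1) scale, against 48.6% of all genes and a median of 0.01. Of the pump genes 10 of 17 were below 0, with a median of −0.04, and of the other lysosomal genes 25 of 28, with a median of −0.08. Without RSD 8 and CON 18 the difference was below 0 for 27 of 45 members, with a median of −0.01, against 49.7% of all genes. The 95% interval lay within 0.5 of 0 on the log2 scale for 40 of 45 members with 13 samples, and for all 17 pump genes and all 28 other genes without those 2 libraries.

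**Figure D2:**
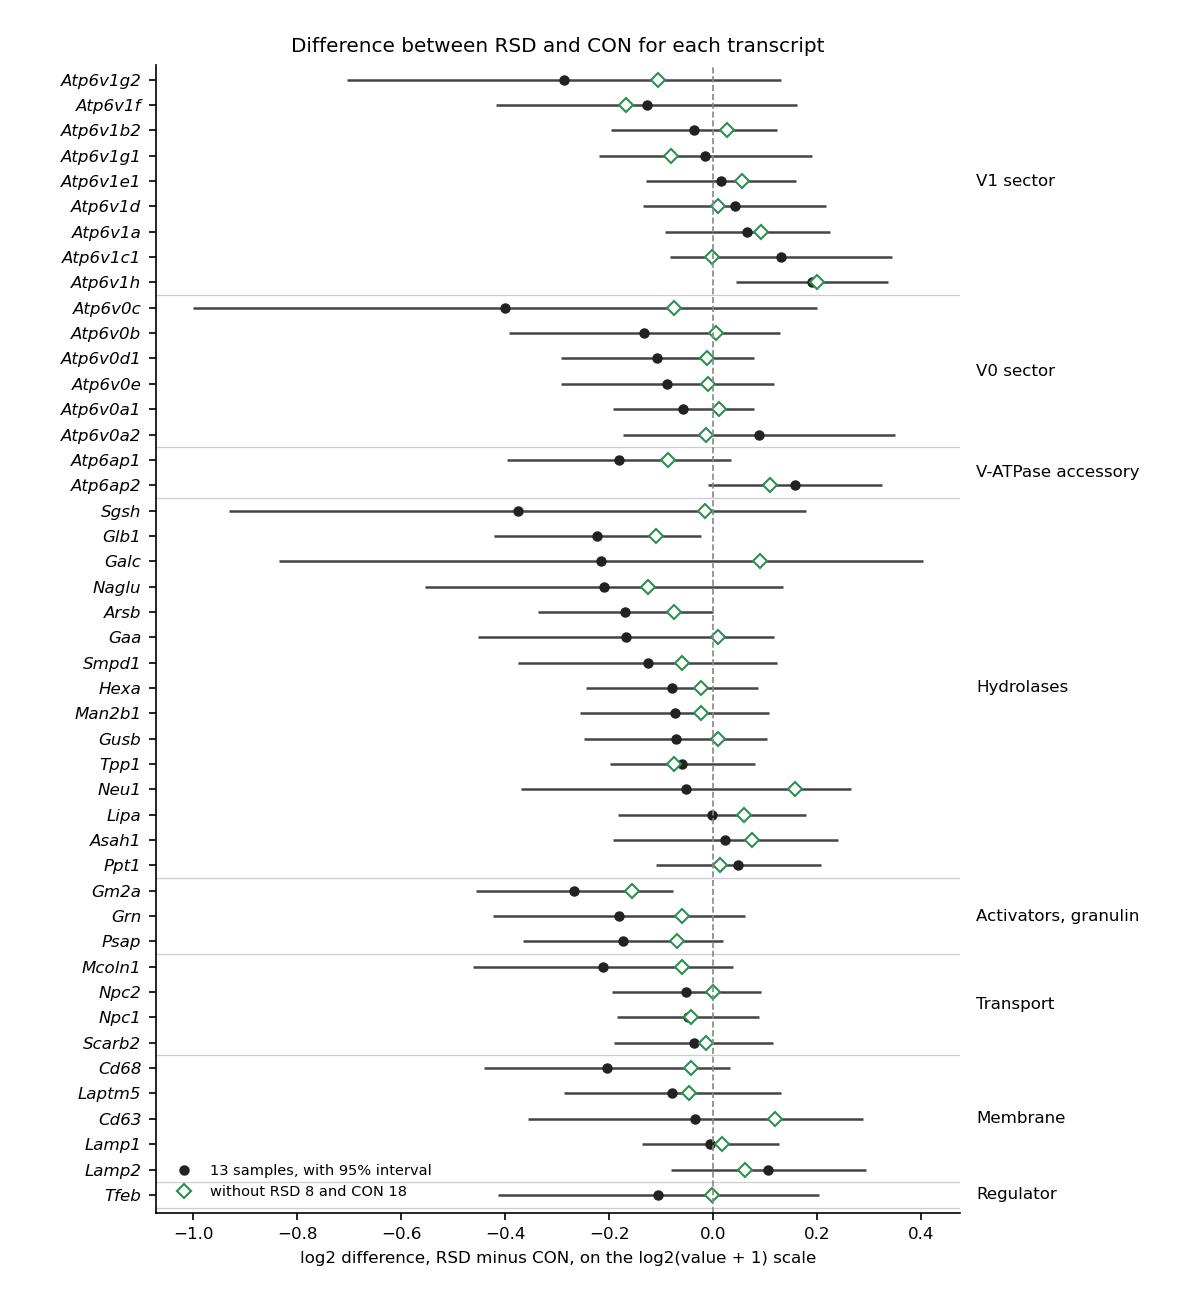
Difference of each member, RSD minus CON, on the log2(value + 1) scale (filled circles, 13 samples, with the 95% interval of the limma fit) and the same without RSD 8 and CON 18 (open diamonds), grouped by role. The intervals of Atp6v1h, Gm2a, Glb1 and Arsb lie to 1 side of 0, that of Arsb ending at −0.00063, none of these passed the adjusted test, and most diamonds sit closer to 0 than their circles.

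Among V1 genes, Atp6v1h encodes the H subunit, a regulatory part of the ATP-splitting sector. It lies on chromosome 1 from 5070018 to 5162529 (GRCm38, plus strand) and had a lowest, median and highest value of 544, 568 and 653 normalized reads in RSD, against 484, 493 and 579 in CON. All 7 RSD libraries lay above the CON libraries other than CON 18, which had 579. The log2 difference was 0.19 ± 0.07 (SE, limma, unadjusted p = 0.0138, adjusted p = 0.821), and 0.20 ± 0.06 without RSD 8 and CON 18 (limma, unadjusted p = 0.00288). It was 0.30 within sample numbers 1 to 8 and 0.10 within 10 to 19 (limma, unadjusted p = 0.266 in the second range). With all 13 samples the groups overlapped for all 45 members, where 0.0640% of all genes had groups that did not. Without CON 18 Atp6v1h was the 1 member whose groups did not overlap (2.22% of members, where 0.336% of all genes had such groups), as it was without both libraries (0.488% of all genes). Without CON 19 it was Gm2a in its place (0.256% of all genes). CON 19 is the only CON library within the RSD range of Gm2a, so this follows from which library was left out. Atp6v1h shares 127 exon bases with Rgs20 on the opposite strand, and the use of strand in counting is not given in the sources used here.

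Atp6v1g2 had a lowest, median and highest value of 41.6, 50.9 and 67.4 normalized reads in RSD, against 39.0, 65.4 and 108 in CON. Its groups overlapped, and CON 18 had the highest value. The log2 difference was −0.29 ± 0.20 (SE, limma, unadjusted p = 0.165, adjusted p = 0.821). It was −0.14 without CON 18 and −0.11 ± 0.17 without both libraries. The other 7 V1 genes that passed the filter had differences from −0.13 in Atp6v1f to 0.13 in Atp6v1c1 with 13 samples, and from −0.17 in Atp6v1f to 0.09 in Atp6v1a without both libraries.

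In V0, Atp6v0c encodes the proteolipid of the rotating ring. Its lowest, median and highest values were 109, 370 and 466 normalized reads in RSD, against 364, 394 and 532 in CON. RSD 8 was lowest at 29.0% of the median of the other RSD libraries, and RSD 2 and RSD 7, at 304 and 293, were also under every CON library. Its log2 difference was −0.40 ± 0.28 (SE, limma, unadjusted p = 0.174, adjusted p = 0.821) and −0.07 ± 0.11 without RSD 8 and CON 18. Its processed pseudogene Atp6v0c-ps2 was listed with at most 15.8 normalized reads, and reads of near-identical copies may have been split between them.

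The accessory subunits of the pump lay on opposite sides of 0. Atp6ap2, the accessory protein also known as the prorenin receptor, had a lowest, median and highest value of 1217, 1322 and 1637 normalized reads in RSD, against 1094, 1195 and 1381 in CON, and RSD minus CON was 0.16 ± 0.08 on the log2 scale (SE, limma, unadjusted p = 0.0635, adjusted p = 0.821). Atp6ap1 had 1150, 1778 and 1875 in RSD, against 1727, 1853 and 2112 in CON, and RSD minus CON was −0.18 ± 0.10 on the log2 scale (SE, limma, unadjusted p = 0.0934, adjusted p = 0.821). The groups overlapped for both genes, and RSD 8 was the highest library for Atp6ap2 and the lowest for Atp6ap1. Without RSD 8 and CON 18 the differences were 0.11 ± 0.06 for Atp6ap2 and −0.09 ± 0.06 for Atp6ap1, and leaving out RSD 8 alone already gave −0.09 for Atp6ap1. Transcript GC content was 40.5% for Atp6ap2 and 51.2% for Atp6ap1, and the difference of Atp6ap2 was 0.05 ± 0.06 once a trend on GC content had been removed from each library.

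Gm2a encodes the GM2 activator, which lifts the ganglioside GM2 out of the membrane for hexosaminidase A. It lies on chromosome 11 from 55098115 to 55113029 (GRCm38, plus strand) and had the smallest p of any member. Its lowest, median and highest values were 926, 1137 and 1219 normalized reads in RSD, against 1168, 1312 and 1694 in CON. Of the CON libraries, CON 19 alone lay within the RSD range. The log2 difference was −0.27 ± 0.09 (SE, limma, unadjusted p = 0.00859, adjusted p = 0.821), and −0.16 ± 0.06 without RSD 8 and CON 18 (limma, unadjusted p = 0.0130). It was −0.32 within sample numbers 1 to 8 and −0.24 within 10 to 19.

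Hexa, the alpha chain of the enzyme that Gm2a serves, had a log2 difference of −0.08 ± 0.08 (SE), and of −0.02 ± 0.05 without RSD 8 and CON 18. Glb1, the beta-galactosidase that removes the terminal galactose of GM1, had a lowest, median and highest value of 382, 441 and 460 normalized reads in RSD, against 452, 484 and 675 in CON. The groups overlapped narrowly. RSD minus CON was −0.22 ± 0.09 on the log2 scale (SE, limma, unadjusted p = 0.0307, adjusted p = 0.821) and −0.11 ± 0.07 without RSD 8 and CON 18. Glb1 shares 165 exon bases with Tmppe on the same strand.

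Arsb, a sulfatase of dermatan and chondroitin sulfate, had a lowest, median and highest value of 4388, 5345 and 5474 normalized reads in RSD, against 5116, 5703 and 7022 in CON. RSD 8 was lowest and CON 18 highest. The log2 difference was −0.17 ± 0.08 (SE, limma, unadjusted p = 0.0492, adjusted p = 0.821) and −0.07 ± 0.05 without those libraries. The other 13 hydrolases had differences from −0.38 in Sgsh to 0.05 in Ppt1 with 13 samples, and from −0.13 in Naglu to 0.16 in Neu1 without RSD 8 and CON 18. Sgsh had −0.08 without CON 18 and −0.02 without both. Of all hydrolases, 13 of the 15 were below 0 with 13 samples and 8 of 15 without RSD 8 and CON 18. On the opposite strand, exon bases are shared by Arsb with Gm26527 (1948) and Gm47210 (463), by Sgsh with Card14 (955), by Galc with Gm47439 (400), by Hexa with Tmem202 (255), by Npc1 with Rmc1 (511) and, over a shorter stretch than the last, by Lamp1 with Grtp1. The same holds for Atp6v0a2 with an annotated antisense gene (663), Atp6v0b with Gm12841 (243), Ppt1 with Cap1 (129) and Npc1 with Gm15956 (90). Shorter stretches are shared by Grn with Fam171a2 (68), Atp6v1c2 with Pdia6 (50) and Atp6v1e1 with Slc25a18 (32). Reads in these stretches cannot be assigned without strand.

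Psap had a lowest, median and highest value of 13025, 18757 and 19396 normalized reads in RSD, against 18239, 20129 and 22160 in CON, and RSD minus CON was −0.17 ± 0.09 on the log2 scale (SE, limma, unadjusted p = 0.0754, adjusted p = 0.821). Grn had 4178, 6998 and 7146 in RSD, against 6327, 7564 and 8108 in CON, and RSD minus CON was −0.18 ± 0.11 on the log2 scale (SE, limma, unadjusted p = 0.135, adjusted p = 0.821). RSD 8 was the lowest library for both, at 69.1% of the median of the other RSD libraries for Psap and 59.7% for Grn. Without RSD 8 and CON 18 the differences were −0.07 ± 0.04 for Psap and −0.06 ± 0.06 for Grn.

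Npc2, which hands cholesterol to Npc1 for export, had a lowest, median and highest value of 1337, 1572 and 1710 normalized reads in RSD, against 1476, 1586 and 1745 in CON, and RSD minus CON was −0.05 ± 0.07 on the log2 scale (SE, limma, unadjusted p = 0.462, adjusted p = 0.850). Npc1 itself had −0.05 ± 0.06 (SE), Scarb2, the receptor that carries glucocerebrosidase, −0.04 ± 0.07, and the calcium channel Mcoln1 −0.21 ± 0.12. Mcoln1 had −0.12 without CON 18 alone. Without RSD 8 and CON 18 the differences were −0.00074 for Npc2, −0.04 for Npc1, −0.01 for Scarb2 and −0.06 ± 0.08 for Mcoln1. The groups overlapped for these 4 transport genes.

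Cd68, the heavily glycosylated membrane protein of macrophage lysosomes, had a lowest, median and highest value of 1859, 2740 and 3061 normalized reads in RSD, against 2750, 2893 and 3969 in CON. RSD 8 was lowest and CON 18 highest. RSD minus CON was −0.20 ± 0.11 on the log2 scale (SE, limma, unadjusted p = 0.0861, adjusted p = 0.821) and −0.04 ± 0.05 without them. Lamp1, a main structural protein of the lysosomal membrane, had 4038, 4163 and 4517 in RSD, against 3888, 4191 and 4705 in CON, and RSD minus CON was −0.0048 on the log2 scale with an interval from −0.14 to 0.13 (limma, unadjusted p = 0.940, adjusted p = 0.985). Tfeb had 217, 398 and 500 in RSD, against 348, 401 and 415 in CON, and RSD minus CON was −0.11 ± 0.15 on the log2 scale (SE, limma, unadjusted p = 0.481, adjusted p = 0.857). Without RSD 8 and CON 18 the differences were 0.02 ± 0.05 for Lamp1 and −0.0013 for Tfeb. The groups overlapped for all 3 genes.

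**Figure D3:**
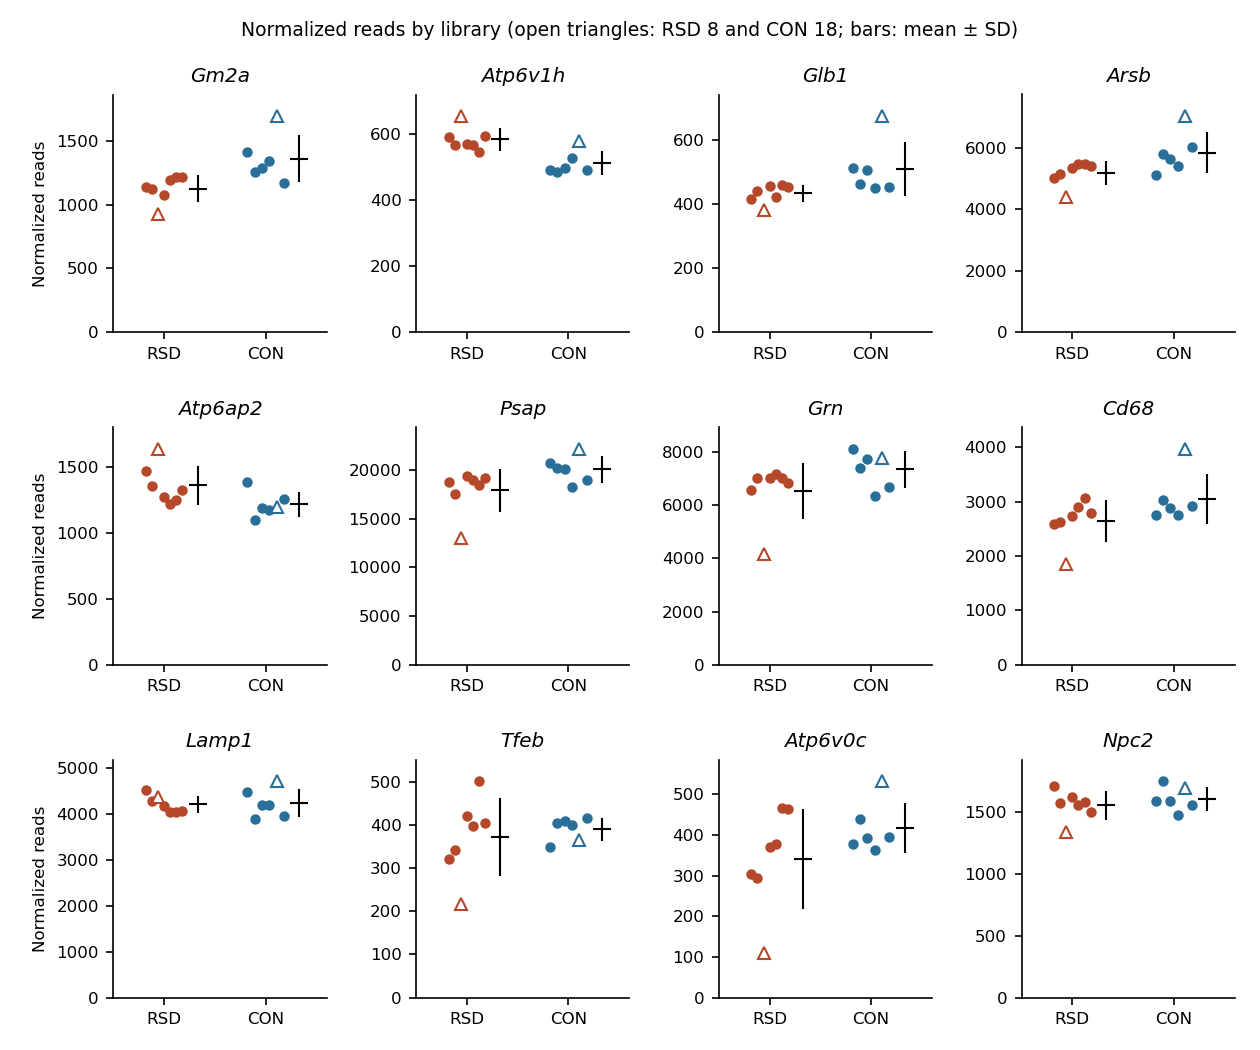
Normalized reads of 12 members in each library, with RSD (n = 7) left of CON (n = 6) and the mean ± SD beside each group. Each axis starts at 0, open triangles mark RSD 8 and CON 18, and these triangles are the outermost points of most panels, as in Grn, where RSD 8 had 4178 normalized reads, and Glb1, where CON 18 had 675.

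The members were also split by whether a promoter entry holds the CLEAR core. With 13 samples 9 of the 10 with the core were below 0, with a median log2 difference of −0.15, against 23 of the 28 kept members without the core, with a median of −0.08. Without RSD 8 and CON 18 the medians were −0.01 for members with the core and −0.02 for members without it. Of the genes whose promoters are printed above, Lamp1 had a difference of −0.0048, Atp6v1a 0.07, Atp6v0e −0.09, Atp6v0d1 −0.11 and Mcoln1 −0.21 with 13 samples. This split was chosen after the values were seen and was not tested.

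RSD 8 was the lowest of the 13 libraries for 26 of 45 members (57.8%), against 24.9% of all genes, and the highest for 6, against 27.5%. Its lowest values relative to the median of the other RSD libraries were in Atp6v0c (29.0%), Naglu (49.5%), Tfeb (54.2%), Gaa (56.7%) and Atp6v0b (57.4%), and its highest in Lamp2 (141%). Its deviations followed transcript base composition. Over the 45 members, the log2 deviation from the median of the other 12 libraries had a Spearman correlation with GC content of −0.90. Over 12365 genes, with the deviation taken from the mean of all 13 libraries, the correlation was −0.733. RSD 2 had −0.517 over those genes, and the other 11 libraries −0.0356 to 0.486. These are correlations across genes within a library, which are not independent replicates.

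With all samples the group difference followed GC content as well. Over the 45 members the log2 difference had a Spearman correlation with transcript GC content of −0.67, against −0.44 over all genes, and of −0.39 without RSD 8. The correlation was −0.84 over the members within sample numbers 1 to 8, against −0.71 over all genes, and had the other sign within 10 to 19, at 0.21 over the members and 0.22 over all genes. Of the 23 members with a GC content at or above the median of 51.3%, 23 were below 0, against 12 of the 22 members under it. Within numbers 10 to 19 these counts were 11 of 23 and 15 of 22. Once a trend on GC content had been removed from each library, 37 of 45 members were below 0, with a median of −0.04, against 48.7% of all genes. In that fit 2 members had an unadjusted p under 0.05, Gm2a at −0.29 ± 0.09 (SE) and Arsb at −0.16 ± 0.07, where 4.21% of all genes did. The difference of Atp6v1h was then 0.11 ± 0.06 (limma, unadjusted p = 0.0665).

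**Figure D4:**
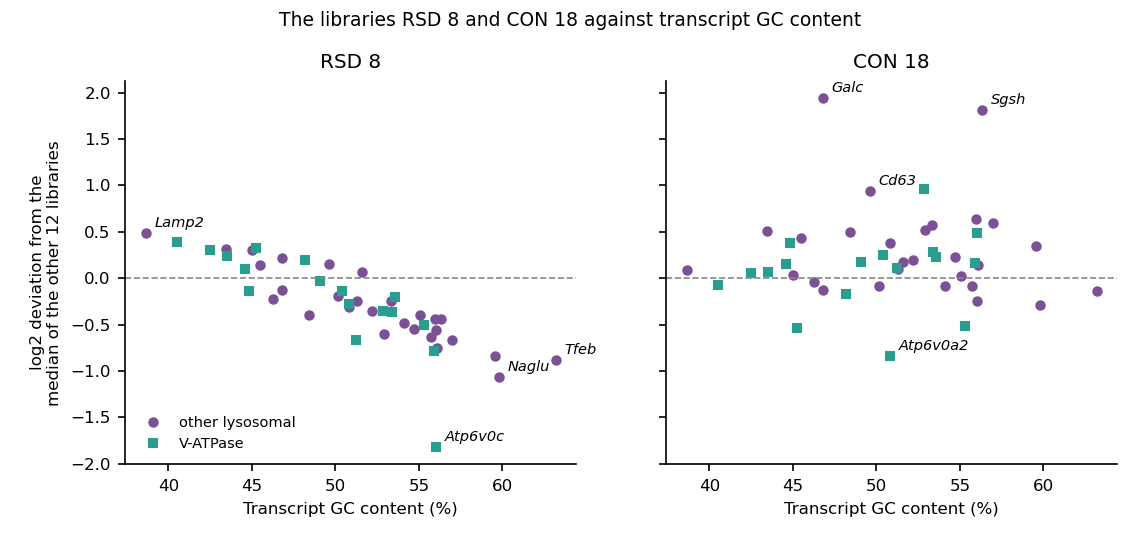
log2 deviation of RSD 8 (left) and CON 18 (right) from the median of the other 12 libraries against transcript GC content in percent, 1 point a member (circles, other lysosomal genes, squares, V-ATPase genes). In RSD 8 the points fall from Lamp2, at a GC content of 38.7%, to Naglu and Tfeb, at 59.8% and 63.2%, with Atp6v0c below the rest, while in CON 18 Galc, Sgsh and Cd63 lie far above 0 and Atp6v0a2 far below.

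CON 18 was the highest library for 23 of 45 members (51.1%), against 21.5% of all genes. Galc, the galactosylceramidase that degrades a main myelin lipid, had 1694 normalized reads there, 3.95 times the median of the other CON libraries, which ranged from 395 to 498. Sgsh, the heparan sulfatase, had 904 reads, 3.44 times that median, and Cd63, a tetraspanin of late endosomes, had 1167, 2.03 times. Atp6v1g2 (1.66 times), Mcoln1 (1.56), Neu1 (1.54), Asah1 (1.505), Glb1 (1.46) and Lipa (1.42) were also higher in CON 18. The a subunit gene Atp6v0a2 went the other way, at 1696 normalized reads against 2915 to 3186 in the other CON libraries, and so did Atp6v1f (0.668 times) and Atp6v1c1 (0.696 times). The border macrophage markers given above moved with these values, with Mrc1 at 12409 normalized reads in CON 18 against 165 to 287 in the other CON libraries, and their part in the result was not tested. In bulk samples, more cells of a type and more RNA per cell cannot be told apart.

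**Figure D5:**
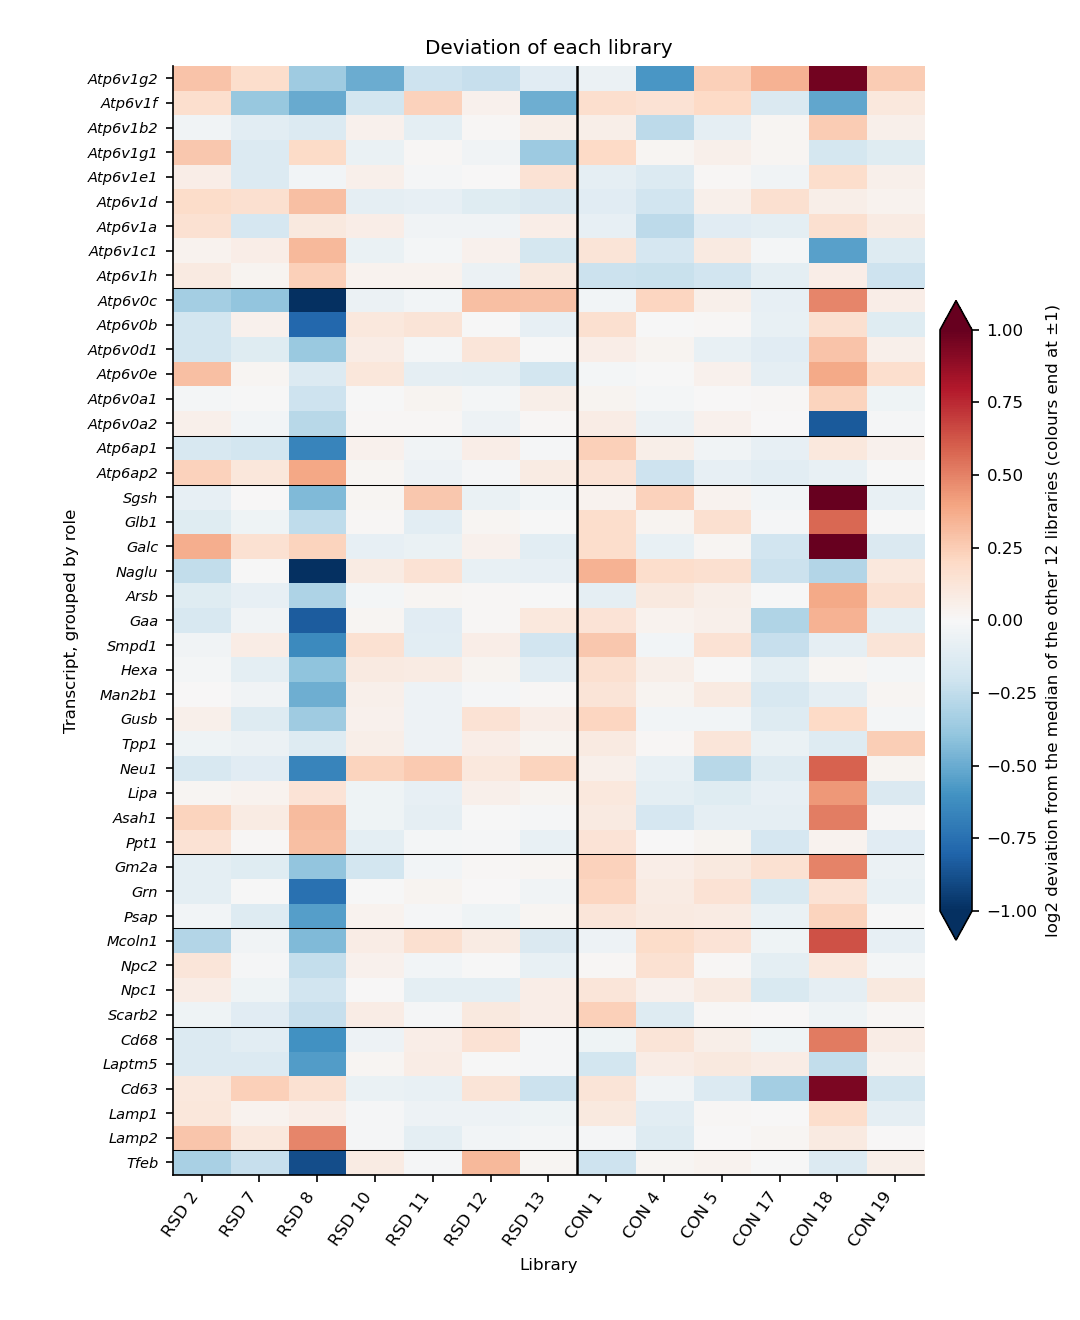
log2 deviation of each of the 45 members (rows, grouped by role) in each library (columns, RSD left of CON) from the median of the other 12 libraries, in red above and blue below, with colours ending at ±1. RSD 8 and CON 18 hold nearly all strong colours. In RSD 8, 28.9% of members deviated by more than 0.5, where 37.2% of all genes did. In CON 18, 26.7% of members did so, where 31.9% of all genes did. Outside these libraries at most 1 member a library did, where 5.53% to 8.67% of all genes did.

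The sample numbers fall into a low range (RSD 2, 7 and 8, CON 1, 4 and 5) and a high range (RSD 10 to 13, CON 17 to 19), and the labels do not say what the numbers mark. Within numbers 1 to 8 the difference was below 0 for 28 of 45 members with a median of −0.16, and 15 members had an unadjusted p under 0.05 (33.3%, where 22.2% of all genes did). Within numbers 10 to 19 it was below 0 for 26 of 45 with a median of −0.02, and 1 member, Atp6v1g2, had such a p (2.22%, where 5.44% did). No member passed an adjusted p of 0.05 in either range. Glb1 had −0.25 in the first range and −0.21 in the second, and Arsb −0.19 and −0.17 in that order. In other members the values lay farther apart. Atp6v0c had −0.91 in the first and −0.03 in the second, Atp6ap1 −0.41 and −0.0050, Psap −0.32 and −0.05, Cd68 −0.31 and −0.14, and Mcoln1 −0.32 and −0.14. Atp6ap2 had 0.28 and 0.06. Members with opposite signs in the ranges included Atp6v1g2, at 0.14 and −0.68, Tfeb, at −0.42 and 0.13, Grn, at −0.42 and 0.02, and Lamp1, at 0.07 and −0.07. Whether the ranges differ was not tested. The groups did not overlap for 18 members in the first range, where 30.5% of all genes had such groups, and for 3 in the second, where 8.59% did. RSD 8 falls in the first range and CON 18 in the second. Summed neutrophil markers were 646 to 1001 normalized reads in RSD 2, 7 and 8 and 155 to 571 in CON 1, 4 and 5, against 22.2 to 135 in RSD 10 to 13 and 11.6 to 42.8 in CON 17 to 19, and their part in these values was not tested.

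Other genes of the lysosomal pathway, 89 that passed the filter in 5 lists, gave a like picture. No pathway gene passed an adjusted p of 0.05, and 1 of 89 (1.12%, where 4.00% of all genes did) had an unadjusted p under 0.05. This was Ap1m1, a subunit of the adaptor that sorts cargo at the trans-Golgi network, with means of 327 ± 61.2 in RSD libraries and 397 ± 24.7 in CON libraries (normalized reads, SD, n = 7 and 6) and −0.30 ± 0.12 (SE) as its log2 difference. Of the 16 mannose 6-phosphate and sorting genes 10 were below 0, with a median of −0.05, and Gnptg, a subunit of the enzyme that tags hydrolases, had −0.18 ± 0.10. Of 23 other hydrolases 17 were below 0, with a median of −0.04, and Idua and Pld4 each had −0.17 ± 0.09. Without RSD 8 and CON 18 the differences were −0.18 for Ap1m1, −0.12 for Gnptg, −0.07 for Idua and −0.06 for Pld4.

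Of 20 other lysosomal membrane genes 13 were below 0, with a median of −0.06. The smallest p-values were those of Cln3, at −0.18 ± 0.09 (SE), and the endolysosomal channel Tpcn1, at −0.21 ± 0.11. Of 19 genes of TFEB relatives and the mTORC1 kinase pathway, which holds TFEB in the cytosol, 11 were below 0, with a median of −0.03. Rragc, a GTPase that recruits mTORC1 to the lysosome, had 0.12 ± 0.06 and Mtor −0.15 ± 0.08. Of 11 other V-ATPase genes 6 were below 0, with a median of −0.03. Rogdi and Dmxl2, which belong to a complex that joins V1 to V0, had −0.20 ± 0.12 and 0.16 ± 0.10. With all 13 samples the median over all genes was 0.01. Without RSD 8 and CON 18, Cln3 had −0.10, Tpcn1 −0.14, Rragc 0.14 and Mtor −0.05. Rogdi then had −0.09 and Dmxl2 0.06.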

How the data were processed

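Microglial RNA was sequenced after ribosomal RNA had been depleted (Ovation SoLo kit), per the labels' protocols. The submitters' processing notes name STAR, DESeq2 and the build mm10. Their versions, the read counter and its strand setting were not given in the sources used here. In the deposited table the authors give a signal for each gene, which is a read count over a size factor of the sample. Every value was a whole multiple of the worth of 1 read, within 0.01 reads, so whole reads were recovered.

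The test was limma 3.58.1 (R 4.3.3) on log2(value + 1) with a mean trend and robust variances, RSD minus CON, two-sided, with Benjamini-Hochberg adjustment over the 12496 genes that passed edgeR's filterByExpr (minimum count 10, minimum total 15). The log2(value + 1) scale understates changes of low genes. Standard errors and intervals are limma's. edgeR 4.0.16 and DESeq2 1.42.0 on recovered reads were alternatives, and the limma step was tested on simulated data. Depth was 9.76 to 12.3 M reads.

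Transcript length and GC content came from GENCODE M21 (GRCm38) and promoters from RefSeq. Members were named with per-sample values if they had the 2 smallest p-values of their role group or an unadjusted p under 0.05, with Lamp1, Grn, Cd68, Tfeb, Npc2 and Atp6v0c in any case, and the 2 smallest p-values of each pathway list. Members and lists were chosen with earlier results of these data known.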

Additional observations from a re-analysis of the deposited data

Results flagged for a closer look

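In groups of 6 or 7 samples, a library was marked where its gap to the nearest other sample was large against the range of its group (Dixon's 95% critical value). Of 98 groups tested, 27 were marked, in 24 members, and chance marks about 1 in 20 groups. That rate holds only where no library stands apart over all genes, and the groups share the same libraries. The share of marked groups over all genes is not given here. The count therefore does not show that members were marked more often than other genes.

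RSD 8 was the low sample in 13 of the marked groups. Over all genes that passed the filter, it was the lowest of all libraries for 24.9% and the highest for 27.5%. It had 13025 normalized reads of Psap, 14426 of Laptm5, 5305 of Man2b1, 4388 of Arsb, 4178 of Grn, 2496 of Atp6v0a2, 2237 of Atp6v0a1 and 2168 of Hexa. It had 1859 of Cd68, 1150 of Atp6ap1, 466 of Atp6v0b, 454 of Gaa and 371 of Naglu. RSD 8 was the high sample for Atp6v1c1, at 1556 normalized reads.

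CON 18 was the high sample in 10 of the marked groups. Over all genes that passed the filter, it was the highest of all libraries for 21.5% and the lowest for 22.6%. It had 6022 normalized reads of Asah1, 3969 of Cd68, 3012 of Atp6v0a1, 1694 of Galc, 1535 of Lipa, 1167 of Cd63, 904 of Sgsh, 720 of Mcoln1, 675 of Glb1 and 467 of Neu1. It was the low sample for Atp6v0a2, at 1696. Outside these libraries, CON 1 was high for Scarb2, at 3002 normalized reads, and RSD 10 for Atp6v1b1, at 10.4 normalized reads, which is a few reads.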

How the results depend on the processing

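No paired analysis was possible because RSD and CON share no sample numbers. The count of members past an adjusted p of 0.05 was 0 in all 24 alternatives. Members with an unadjusted p under 0.05, 4 with all samples (4.00% of all genes), were 2 to 5 when 1 library was left out. Of these fits, the share of all genes was 2.58% without RSD 2, 3.10% without RSD 8 and 4.95% without CON 18. It is not given here for the others. Such members were 2 without CON 18 and RSD 8 (4.89% of all genes), 15 within numbers 1 to 8 (22.2%) and 1 within 10 to 19 (5.44%). They were 6 with the number range as a term (5.87%) and 2 with the GC trend removed (4.21%). Pathway genes at that level, 1 with all samples (1.12%, where 4.00% of all genes were), were 1 to 3 when 1 library was left out (1.12% to 3.37%). The shares of all genes in those fits are given above where known. They were 2 by DESeq2 (2.25%, where 4.62% of all genes were), 6 without CON 18 and RSD 8 (6.74%, where 4.89% were) and 22 within numbers 1 to 8 (24.7%, where 22.2% were). Pathway genes at that level were 4 within 10 to 19 (4.49%, where 5.44% were), 3 with the number range as a term (3.37%, where 5.87% were) and 4 with the GC trend removed (4.49%, where 4.21% were). Members whose groups did not overlap were 0 with all samples (0.0640% of all genes), 1 without CON 18 (0.336%), 1 without CON 19 (0.256%) and 0 without any other single library. They were 1 without both CON 18 and RSD 8 (0.488% of all genes), 18 within numbers 1 to 8 (30.5%) and 3 within 10 to 19 (8.59%). The median of the other lysosomal genes was −0.22 within numbers 1 to 8. The sign turned for Atp6v1g2 (0.14 within 1 to 8), Grn (0.023 within 10 to 19), Tfeb (0.017 without RSD 8, 0.13 within 10 to 19, 0.065 with the GC trend removed, and −0.18 to 0.017 when 1 library was left out) and Lamp1 (0.017 without both libraries, 0.071 within 1 to 8, 0.016 with the GC trend removed, and −0.029 to 0.026 when 1 library was left out). The cause was not tested. Genes of few reads, such as Atp6v1b1, Atp6v1c2 and Atp6v0e2, are limited by depth.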
